A study of Mus musculus with 20 samples.

Results

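Mouse blood stem and progenitor cells carrying 1 mutant copy of Idh1 were compared with cells lacking it. The 4 Idh1R132H libraries were set against the 4 wild-type (WT) libraries, 8 of the 20 libraries of the series, and all 13830 of 46078 gene IDs with a mean of at least 1 TPM (transcript abundance scaled for gene length and library total) over those 8 were tested. All cells were LSK cells, that is, bone marrow cells without mature lineage markers that carry cKit and Sca1 on their surface, among which are the blood stem cells and early progenitors of several lineages. The Idh1R132H mice had the genotype Idh1LSL-R132H/+;Vav-Cre and the WT mice +/+;Vav-Cre, so both groups carried the Cre recombinase, which the Vav promoter drives in blood-forming cells. All mice were C57Bl/6J and 3 to 4 months old, and each library is total RNA of a pool of 2 mice. The other 12 libraries, 4 each of Idh2LSL-R140Q/+;Vav-Cre (Idh2R140Q), Idh2LSL-R172K/+;Vav-Cre (Idh2R172K) and Tet2-/- (Tet2KO), entered the fit for its estimate of spread. A pool hides differences between its mice, and the labels do not give the share of cells in which the allele was recombined.

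IDH1 is the isocitrate dehydrogenase of the cytosol and makes 2-oxoglutarate with NADPH. The R132H enzyme, known from leukaemia and glioma, turns 2-oxoglutarate into 2-hydroxyglutarate, which inhibits dioxygenases that need 2-oxoglutarate, among them the TET proteins that oxidise methylated DNA and many histone demethylases. TET2 loss and IDH mutation are both found in blood cancers, and the comparison asks what the Idh1 allele does to the RNA of the stem and progenitor pool.

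The reference sequence at the R132H position shows what the allele changes. The codon of R132 in Idh1 lies in exon 3 of transcript Idh1-201 (GENCODE M21, build mm10), on the minus strand at chr1:65170977-65170979, and CGA codes for arginine. The window chr1:65170959-65170997 is given in coding direction with this codon in capitals.
Idh1 codon of R132: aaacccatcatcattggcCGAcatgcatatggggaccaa
The TPM values do not separate the 2 alleles, so the mutant share of the transcript was not measured.

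Depth read back from the TPM values was 37000400 to 43545600 assigned reads in the 8 libraries. Libraries with the same number deviated together: the correlation of their deviations from the group means was 0.2156, 0.2065, 0.1667 and 0.4823 for numbers 1 to 4, and each Idh1R132H library correlated best with the WT library of its own number. Pools 1 and 3 were female and pools 2 and 4 male in both groups by their sex-linked RNA. The 2 libraries numbered 4 stood apart: on the first principal component, with 36.5% of the variance, they lay at 43.5 (Idh1R132H) and 42.1 (WT), against -21.4 to -9.72 for the other 6. Over all genes the median log2 difference was 0.037 and 8987 genes (65%) lay above 0, but with median-of-ratios scaling the median was -0.002 and 6823 genes (49.3%) lay above 0, so directions of small differences depend on the scaling.

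The genes of the sort and of the targeted locus were measured first. Kit, the receptor for stem cell factor, was at 402 TPM (SD 43.0) in Idh1R132H and 391 (SD 44.4) in WT. Ly6a, which encodes Sca1, was at 191, 195, 197 and 196 TPM in Idh1R132H pools 1 to 4, against 185, 183, 155 and 149 in WT, so the groups did not overlap, and the log2 difference was 0.22 ± 0.11, not called. Idh1 itself had 114, 83.3, 122 and 95.8 TPM in Idh1R132H, against 83.9, 74.3, 94.9 and 102 in WT. These ranges overlapped, and the difference of 0.22 ± 0.16 on the log2(TPM + 1) scale did not pass (limma, unadjusted p = 0.195; exact permutation test of the TPM, 2-sided p = 0.2, n = 4 each, smallest possible 0.0286). Idh2, the mitochondrial paralog, averaged 527 TPM (SD 64.5) in Idh1R132H and 529 (SD 80.6) in WT, and Tet2 averaged 8.86 (SD 1.54) in Idh1R132H and 7.500 (SD 1.17) in WT.

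A single gene was called between the genotypes, and the count depended on the libraries and the block in the fit. At an adjusted p under 0.05 in limma (moderated linear model, Benjamini-Hochberg adjustment over all genes tested) 1 of 13830 genes was called (0.00723%), and the next smallest adjusted p was 0.687. An unadjusted p under 0.05 was reached by 229 genes (1.66%), of which 145 were higher (1.05%) and 84 lower (0.607%) in Idh1R132H; with median-of-ratios scaling the split was 139 higher and 163 lower. The 4 Idh1R132H libraries lay all above the 4 WT libraries in 129 genes (0.933%) and all below in 107 (0.774%), 236 in all (1.71%). For exchangeable libraries the expected share of such genes is 0.0286, and the share found was below it. The 1.66% by unadjusted p was likewise below the expected 0.05. Same-numbered libraries deviated together, so exchangeability need not hold, and neither share shows that the groups differ less than by chance. Lack of overlap in a named gene is therefore only a description. With the replicate number as a block in the 8 libraries, no gene was called in limma. An unadjusted p under 0.05 was then reached by 1511 genes (10.9%), above the expected 0.05, and 1031 of them were higher (7.45%). With the block in all 20 libraries 2 genes were called (0.0145%), Fhl2 and Plbd1. Tet2KO pools 1 and 2 were male and pools 3 and 4 female by sex-linked RNA, unlike the other groups. A number need not mark the same thing in Tet2KO, and correlation by number was checked only between Idh1R132H and WT.

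Fhl2 was the gene called, and it rose 3.63-fold in mean TPM. It encodes a LIM-domain protein that binds integrins and transcription factors as a cofactor, and is known best from heart and skeletal muscle. Fhl2 (ENSMUSG00000008136, minus strand, chr1:43123074-43196984) had 6.32, 7.80, 6.41 and 8.17 TPM in the 4 Idh1R132H pools, against 1.117, 2.09, 1.85 and 2.84 TPM in the WT pools. All 4 Idh1R132H pools were far above all 4 WT pools. The log2 difference was 1.48 ± 0.18 (SE, limma, adjusted p = 0.00248). In a fit that left out the libraries numbered 4 of all 5 groups, it was 1.56 ± 0.19 (limma, adjusted p = 0.0227).

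The Fhl2 call rests on the spread shared with the other groups. In the 8 libraries alone the adjusted p was 0.166 without and 0.0804 with the replicate block, at the same difference, and in all 20 libraries with the block it was 0.00154. A filter at a mean of 5 TPM removes the gene. Fhl2 overlaps the pseudogene Gm8210 on the opposite strand, and the strand setting of the read counting is not given in the sources used here.

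**Figure D1:**
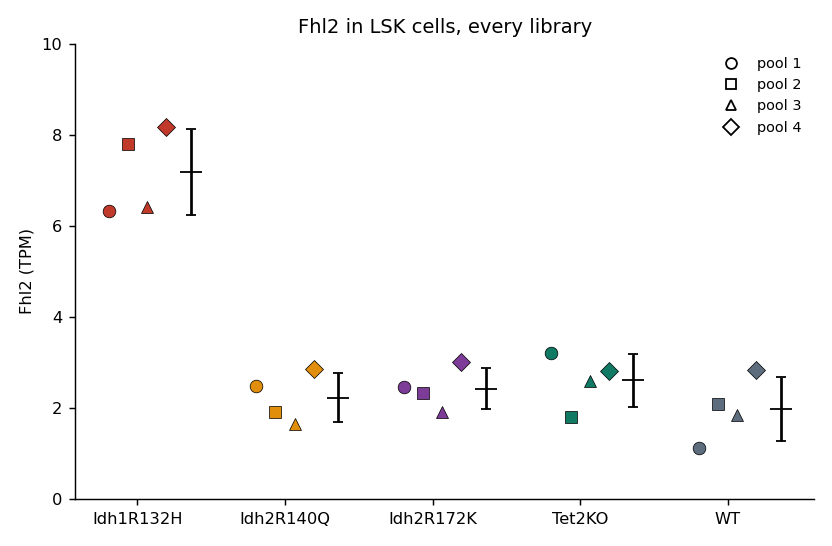
Fhl2 in TPM in each library of the 5 groups, with marker shape for the pool number and the mean with SD (n = 4) at the right of each group. The 4 Idh1R132H libraries sit between 6.32 and 8.17 TPM, above all 16 others.

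Fhl2 also differed between Idh1R132H and each of the other mutant groups in the same fit. It had 2.49, 1.92, 1.65 and 2.85 TPM in Idh2R140Q, 2.46, 2.34, 1.90 and 3.00 in Idh2R172K and 3.21, 1.81, 2.60 and 2.80 in Tet2KO, none of which reached an Idh1R132H library. The log2 difference of Idh1R132H was 1.35 ± 0.18 over Idh2R140Q (adjusted p = 0.00934), 1.26 ± 0.18 over Idh2R172K (7.13e-05) and 1.19 ± 0.18 over Tet2KO (0.00173). Of the same family, Fhl4 averaged 3.31 TPM (SD 0.915) in Idh1R132H and 2.54 (SD 0.351) in WT. All 4 of its pairs lay above 0, as in 13.8% of all genes. Fhl1 and Fhl3 were chosen after their values were seen. Fhl1 averaged 6.64 TPM (SD 0.777) in Idh1R132H and 6.09 (SD 0.876) in WT. Fhl3 averaged 3.78 (SD 0.481) in Idh1R132H and 4.07 (SD 0.617) in WT. With overlap in each of these genes, none was called. Of 27 tested genes of the FHL family and its LIM-domain and binding partners, Fhl2 was the 1 called (0.00723% of all genes were). The list was drawn up around this family with earlier results known, so that call is no result about the list. The median of the list was 0.08, beside 0.04 over all genes. With median-of-ratios scaling it was 0.04, beside -0.002.

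Most interferon-stimulated genes had higher values in Idh1R132H, although none was called. These genes encode the antiviral and signalling proteins that cells make when type I or II interferon binds its receptors, and interferon is known to move stem cells out of rest. Of 52 listed genes, all of which were tested, 49 lay above 0 (94.2%, beside 65% of all genes) and the median log2 difference was 0.25 (beside 0.04). The list was drawn up with earlier results of these data known, so its counts are a description and not a test. The number above 0 was 47 with median-of-ratios scaling, at a median of 0.21, and 49 without the libraries numbered 4, at a median of 0.24. In 39 of the 52 all 4 same-numbered pairs were above 0 (in 13.8% of all genes). An unadjusted p under 0.05 in limma was reached by 15, all higher, where 1.05% of all genes were higher at that p. The summed level of the list was 4617, 4318, 4643 and 4834 TPM in the Idh1R132H pools, against 4102, 3966, 4073 and 4313 TPM in the WT pools. The lowest Idh1R132H pool lay only just above the highest WT pool. Median-of-ratios factors were 0.944 to 1.13 in Idh1R132H and 0.903 to 1.09 in WT, highest in pool 4 of each. The sums were not rescaled by them, and a margin this small depends on the scaling.

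The start regions of 3 of these genes are shown for the letters that interferon-regulated promoters are known for, which 2 of them hold. Windows run from 250 bases before to 50 after the gene start (RefSeq, GRCm38.p6), in the direction of the gene, and capitals mark GAAANNGAAA on either strand, the core of the interferon-stimulated response element. Ifit3b (chr19:34607707-34608006, plus strand) and Oas1g (chr5:120887564-120887863, minus strand; its 2 matches overlap) hold it and Oasl1 (chr5:114922990-114923289, plus strand) does not.
Ifit3b: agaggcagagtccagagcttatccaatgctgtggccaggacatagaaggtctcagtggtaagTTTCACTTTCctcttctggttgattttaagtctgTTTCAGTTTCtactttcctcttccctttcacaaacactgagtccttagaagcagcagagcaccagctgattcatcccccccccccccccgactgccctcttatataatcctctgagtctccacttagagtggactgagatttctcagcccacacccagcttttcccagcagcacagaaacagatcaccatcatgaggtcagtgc
Oas1g: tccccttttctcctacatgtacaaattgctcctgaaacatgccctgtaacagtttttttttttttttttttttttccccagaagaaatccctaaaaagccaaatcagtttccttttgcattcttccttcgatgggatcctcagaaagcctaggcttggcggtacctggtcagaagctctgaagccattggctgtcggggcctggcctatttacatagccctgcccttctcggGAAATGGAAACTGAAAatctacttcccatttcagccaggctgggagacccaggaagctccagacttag
Oasl1: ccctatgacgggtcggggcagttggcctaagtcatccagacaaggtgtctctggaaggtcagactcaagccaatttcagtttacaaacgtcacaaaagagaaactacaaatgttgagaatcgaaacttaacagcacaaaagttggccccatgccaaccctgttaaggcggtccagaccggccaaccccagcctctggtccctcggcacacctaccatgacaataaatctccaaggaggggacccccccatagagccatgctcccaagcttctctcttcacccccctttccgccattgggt
Of the 39 listed genes with a window in the table, 20 (51.3%) held the motif, beside 352 of 9440 other tested genes (3.73%). A match is not a measured binding site.

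Ifi27l2a, an interferon-induced gene of the mitochondrial ISG12 family, had 139, 95.2, 140.5 and 128 TPM in the Idh1R132H pools, against 60.2, 56.1, 63.0 and 63.0 TPM in WT. All Idh1R132H pools lay above all WT pools, and the log2 difference was 1.03 ± 0.30, not called. Its neighbour Ifi27, outside the list, had 239, 229, 262 and 248 TPM in Idh1R132H and 175, 173, 172.2 and 167 in WT, again without overlap. The 2 genes are similar in sequence, and reads could be split between them.

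Usp18, which removes ISG15 from proteins and dampens the interferon receptor, had 55.3, 38.7, 50.1 and 65.6 TPM in Idh1R132H and 31.8, 24.8, 30.55 and 41.1 in WT. Its groups overlapped, yet each Idh1R132H pool was above the WT pool of its number, and the paired differences were close to each other, at 0.69 ± 0.19 without and ± 0.04 with the block. Under the block of the 8 libraries Usp18, Ifi27l2a, Fhl2 and Acadl shared the smallest adjusted p in limma, 0.0804. Oasl1, an OAS-like protein that in mouse acts on Irf7 translation, had 23.9, 20.2, 28.7 and 27.1 TPM in Idh1R132H, against 13.5, 14.2, 16.9 and 18.9 TPM in WT, with no overlap. Irf7, the factor that amplifies type I interferon, had 50.2, 35.1, 48.8 and 69.9 TPM in Idh1R132H and 26.7, 26.6, 28.1 and 48.9 in WT, where pool 4 was high in both groups. Oas1g, of the synthetases that sense double-stranded RNA, had 9.93, 5.93, 8.97 and 11.9 TPM in Idh1R132H, against 5.81, 3.34, 4.79 and 6.99 TPM in WT. Ifit3b, an RNA-binding antiviral protein, was lower in level, at 1.45, 1.34, 1.89 and 1.87 TPM in Idh1R132H and 0.448, 0.627, 1.20 and 0.869 in WT.

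Isg15, the ubiquitin-like modifier, had a log2 difference of 0.35 ± 0.21, not called. The 3 members below 0 were Psmb8, an immunoproteasome subunit (-0.06), Irf1 (-0.07) and Gbp2, a guanylate-binding protein (-0.12), which lay below 0 in all 4 pairs (6.78% of all genes did). Pair 2 gave the smallest median, 0.16, and pairs 1, 3 and 4 gave 0.28, 0.30 and 0.27. The median was 0.13 without Idh1R132H pool 4 and was 0.38 without WT pool 4; over all genes the medians of those settings were -0.02 and 0.10.

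**Figure D2:**
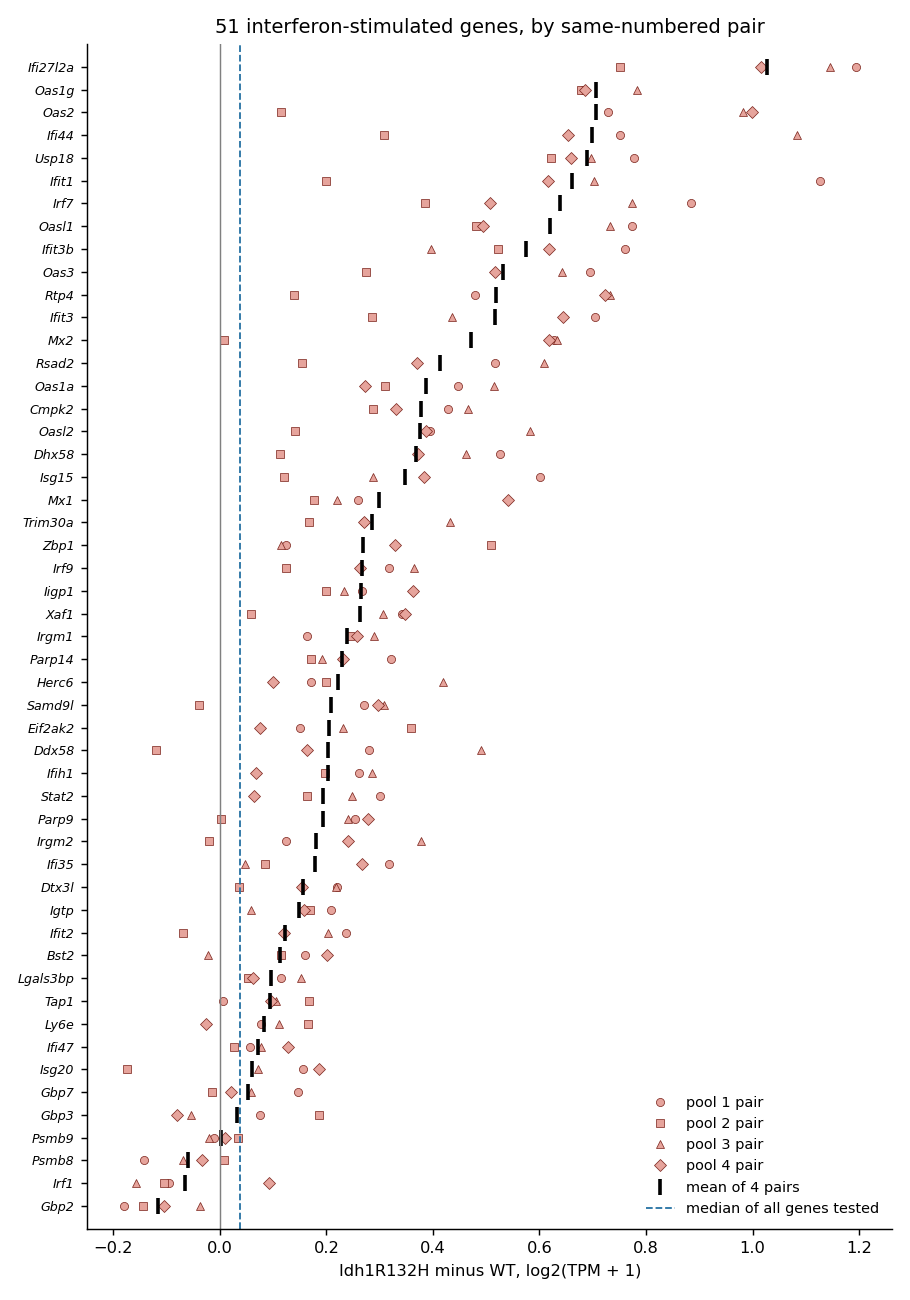
Log2(TPM + 1) difference of Idh1R132H minus WT for 51 of the 52 interferon-stimulated genes in each same-numbered pair (marker shapes), with the mean of the 4 pairs as a bar and the median of all 13830 genes, 0.04, as a dashed line. The means of 48 of them lie above 0, and pair 2 tends to hold the smallest difference.

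Xcr1 and Clec9a, of the list of dendritic cell and MHC class II markers, had higher values in Idh1R132H and were not called. They are described with Plbd1, of the granulocyte-monocyte list, Tlr3, named for its small p-value, and Naaa and Ifi205, chosen after their values were seen. These genes were set together with their values known, and no test of them as a group was made. Plbd1, a phospholipase B-like protein also made in granulocytes, had 22.7, 30.8, 14.1 and 24.3 TPM in Idh1R132H, against 14.7, 6.86, 5.43 and 8.96 TPM in WT. Pool 1 of WT lay above pool 3 of Idh1R132H, and every same-numbered pair was higher in Idh1R132H, with a log2 difference of 1.30 ± 0.27 (limma, adjusted p = 0.687). With the block in all 20 libraries, where the numbers differ in sex in Tet2KO, Plbd1 was called (limma, adjusted p = 0.0361).

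Xcr1, a chemokine receptor of mouse dendritic cells that present antigens of dead cells, had 3.31, 4.26, 2.00 and 2.95 TPM in Idh1R132H and 2.05, 1.17, 0.773 and 0.780 in WT. Naaa, an acid amidase of lysosomes, had 14.4, 19.3, 11.6 and 15.4 TPM in Idh1R132H, against 11.6, 7.66, 5.83 and 6.61 TPM in WT. In both genes WT pool 1 was the highest of its group, level with or just above the lowest Idh1R132H pool. Clec9a, a receptor for dying cells, averaged 1.85 TPM (SD 0.247) in Idh1R132H and 1.17 (SD 0.169) in WT. Tlr3, a sensor of double-stranded RNA, averaged 3.80 (SD 0.710) in Idh1R132H and 1.96 (SD 0.705) in WT, and neither Clec9a nor Tlr3 overlapped between the groups. Ifi205, an interferon-inducible gene, was at 2.32 TPM (SD 0.732) in Idh1R132H and 0.937 (SD 0.553) in WT.

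Of 17 tested dendritic cell and MHC class II markers, 13 lay above 0 (76.5%, beside 65% of all genes), with a median of 0.19 beside 0.04. Without the libraries numbered 4 there were 14, with a median of 0.15. An unadjusted p under 0.05 was reached by 5, all higher, where 1.05% of all genes were higher at that p. Of the 17, 4 lay below 0, and 2 were below 0 in all 4 pairs, as were 6.78% of all genes. Flt3 was 1 of these 2, at a log2 difference of -0.07 ± 0.19. The list's summed level was 1693 to 2415 TPM in Idh1R132H and 1504 to 1934 TPM in WT. H2-Ab1, an MHC class II chain chosen after its values were seen, had 271, 375, 193 and 312 TPM in Idh1R132H, against 273, 212, 172.3 and 193 TPM in WT. No listed marker was at 0 in all 8 libraries. More cells of a type and more RNA per cell cannot be told apart in bulk RNA, and the part of such cells in the interferon-gene values was not tested.

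**Figure D3:**
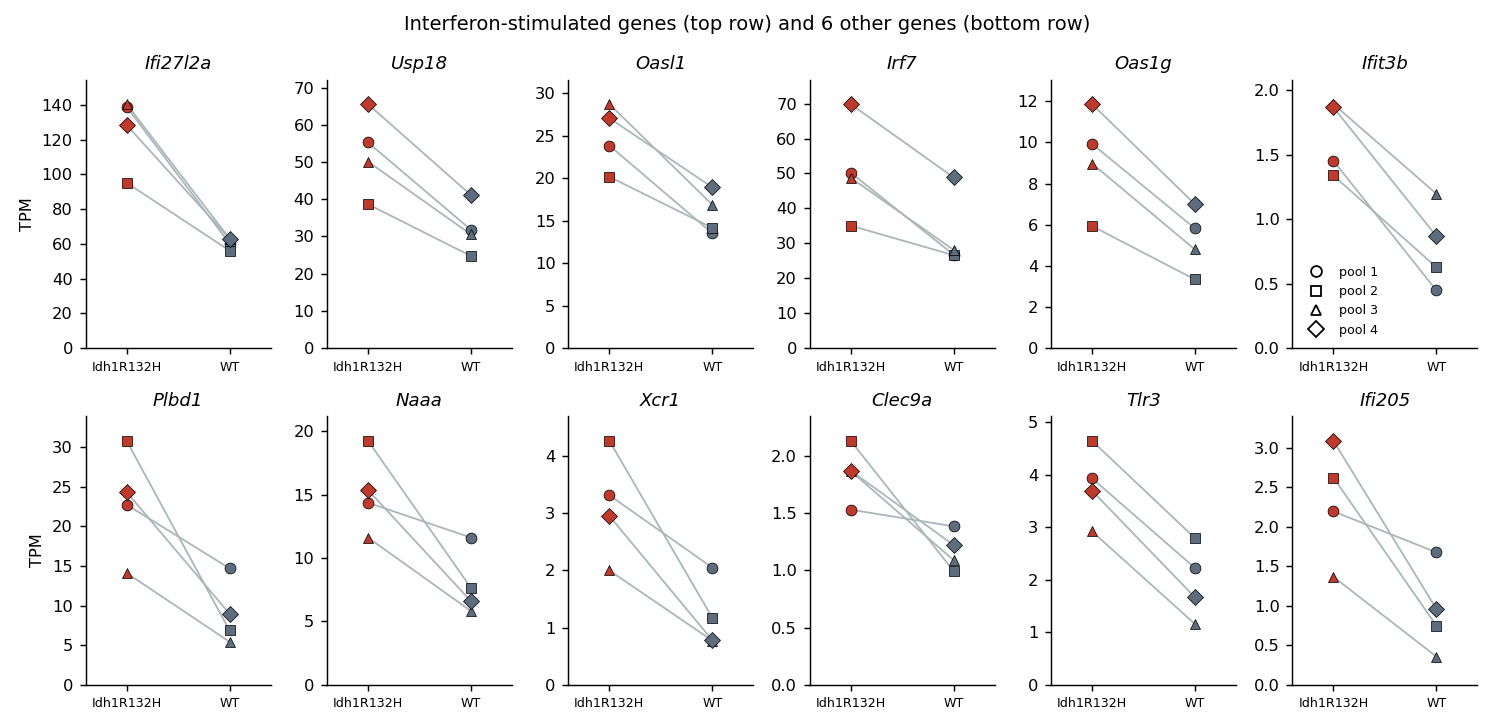
TPM of 6 interferon-stimulated genes (top) and of Plbd1, Naaa, Xcr1, Clec9a, Tlr3 and Ifi205 (bottom), Idh1R132H left and WT right, with lines joining libraries of the same number. Every line slopes down to WT in these 12 genes. Irf7 was a fixed gene of the naming rule, and the others were chosen for small p-values or after their values were seen.

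Markers of red cell, basophil and eosinophil precursors had medians above that of all genes, with no member called. Of 33 erythroid priming genes, 27 lay above 0 (81.8%, beside 65% of all genes), with a median of 0.20, and by pair the medians were 0.25, 0.36, -0.02 and 0.00. Aqp1, a water channel of red cells, had 104, 107, 108 and 107 TPM in Idh1R132H and 75.2, 55.6, 99.7 and 84.7 in WT. The groups did not overlap, and the Idh1R132H pools were nearly equal while the WT pools ranged widely. Gata1, the factor that directs red cell and megakaryocyte fate, had 65.2, 58.5, 58.8 and 54.7 TPM in Idh1R132H, against 49.4, 41.4, 52.9 and 52.2 TPM in WT. Klf1, a factor of red cell genes, averaged 66.5 (SD 9.19) in Idh1R132H and 55.7 (SD 6.28) in WT, with overlap. The haemoglobin genes Hbb-bs and Hbb-bt had log2 differences of 0.12 and -0.36, with overlap in both. The separate list of red cell markers lay above 0 in 7 of 11 (63.6%, beside 65% of all genes). Its median was 0.12, and its pair medians were 0.18, 0.37, -0.05 and -0.10.

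Basophil and mast cell markers lay above 0 in 9 of 12 tested members (75%, beside 65% of all genes), with a median of 0.15, and 3 lay below 0. With median-of-ratios scaling 8 of 12 lay above 0 (66.7%, beside 49.3%). The summed level of the list was 709.5 to 853 TPM in Idh1R132H and 557 to 699 TPM in WT, without overlap. The sums were not rescaled, and so small a margin depends on the scaling. Sums overlapped for eosinophil (146 to 530 against 75.5 to 293 TPM in WT) and mature neutrophil markers (122 to 196 against 68.3 to 148). Those of erythroid priming genes overlapped too (3022 to 3266 against 2923 to 3206). Of the 17 basophil and mast cell members, 1 was at 0 in all 8 libraries. Ms4a2, the beta chain of the IgE receptor, had 10.3, 9.45, 12.1 and 12.1 TPM in Idh1R132H, against 6.23, 6.37, 6.27 and 8.22 TPM in WT. Hdc, which makes histamine, had 24.8, 18.1, 22.2 and 16.2 TPM in Idh1R132H and 14.0, 9.42, 13.8 and 12.98 in WT. Both genes kept the groups apart, at 0.63 ± 0.18 and 0.65 ± 0.22. Eosinophil markers lay above 0 in 9 of 9 (beside 65% of all genes), with a median of 0.45 (0.76 without the libraries numbered 4). Their pair medians were 0.72, 0.95, 0.49 and -0.01. Prg3, an eosinophil granule protein, had 18.2, 10.5, 11.6 and 6.67 TPM in Idh1R132H, against 10.6, 1.62, 4.57 and 4.05 TPM in WT, so pool 1 was highest in both groups. Mature neutrophil markers lay above 0 in 8 of 10 (80%, beside 65% of all genes), with a median of 0.28. Their pair medians were 0.50, 0.70, -0.28 and 0.16. Without the libraries numbered 4 they lay above 0 in 9 of 10, with a median of 0.43. The part of such cells in the values of other genes was not tested.

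Of 37 tested genes of the LSK sort and of stem cells, 22 lay above 0 with a median of 0.02, which was -0.02 with median-of-ratios scaling, and none had an unadjusted p under 0.05. Hlf, a factor of stem cells, averaged 71.6 TPM (SD 1.39) in Idh1R132H and 72.6 (SD 5.33) in WT. Procr, the surface marker EPCR, averaged 25.1 (SD 10.5) in Idh1R132H and 26.1 (SD 10.1) in WT, and its high values in both groups were those of pool 4. Flt3, the receptor of lymphoid-primed progenitors, averaged 255 TPM (SD 57.5) in Idh1R132H and 267 (SD 58.8) in WT. Granulocyte-monocyte genes lay above 0 in 25 of 32 (78.1%, beside 65% of all genes), with pair medians of 0.20, 0.36, 0.09 and -0.16. Mpo, the myeloperoxidase of granules, averaged 4480.0 TPM (SD 786) in Idh1R132H and 3608 (SD 694) in WT. The granulocyte-monocyte median was 0.12, and 0.22 without the libraries numbered 4. B lineage markers lay above 0 in 2 of 8, with a median of -0.17.

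No change was called in genes of the pathway that the mutant enzyme touches, nor in the lipid synthesis, G2/M and DNA damage genes below. Beside the counts below, 65% of all genes lay above 0, and 49.3% with median-of-ratios scaling. Of 37 tested genes of IDH, TCA cycle and 2-oxoglutarate metabolism, 26 lay above 0 with a median of 0.03 (-0.01 with median-of-ratios scaling), and D2hgdh, which clears 2-hydroxyglutarate, averaged 25.3 TPM (SD 5.13) in Idh1R132H and 23.7 (SD 6.50) in WT. Of 26 genes of TET, DNMT and base excision, 19 lay above 0 with a median of 0.04. Histone demethylases and other 2-oxoglutarate dioxygenases lay above 0 in 38 of 44 with a median of 0.07, and in 27 of 44 with a median of 0.02 under median-of-ratios scaling. Fatty acid and cholesterol synthesis genes lay above 0 in 23 of 30, with pair medians of 0.20, 0.08, 0.14 and 0.09. Fdft1, squalene synthase, had 28.2, 24.8, 29.9 and 24.2 TPM in Idh1R132H and 23.3, 22.5, 23.7 and 21.7 in WT. Of 34 G2/M genes 31 lay above 0 at a median of 0.06 (26 and 0.02 with median-of-ratios scaling), and Mki67 averaged 87.4 TPM (SD 14.7) in Idh1R132H and 75.4 (SD 8.22) in WT. Atm, the kinase of the response to DNA breaks, averaged 22.6 TPM (SD 3.77) in Idh1R132H and 20.2 (SD 1.89) in WT.

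**Figure D4:**
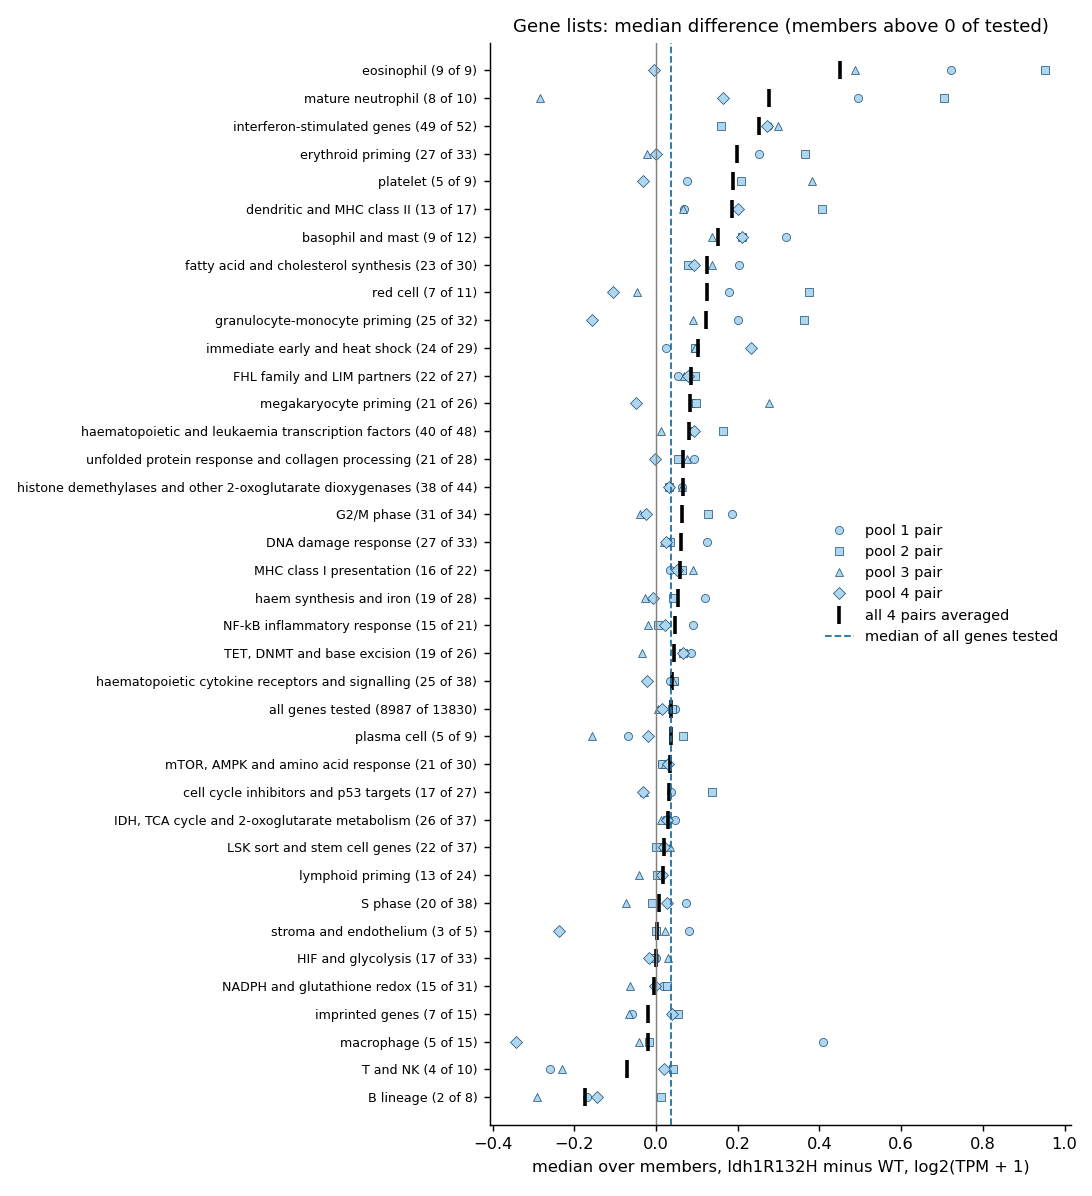
Median log2(TPM + 1) difference of Idh1R132H minus WT over the tested members of each gene list, for each same-numbered pair (marker shapes) and for all 4 pairs averaged (bar), with the number of members above 0. The interferon list has all 4 pairs between 0.16 and 0.30, while the eosinophil list ranges from -0.01 to 0.95.

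Several single genes of growth and metabolism were higher without overlap, though none was called. Hmga2, a chromatin protein of fetal stem cells that is known to act in self-renewal, had 4.86, 5.21, 5.25 and 7.63 TPM in Idh1R132H, against 2.83, 3.07, 3.50 and 3.69 TPM in WT (log2 difference 0.65 ± 0.21, not called); it is a member of the transcription factor list. Lgals3, which encodes galectin-3, averaged 10.5 TPM (SD 1.12) in Idh1R132H and 6.70 (SD 2.00) in WT. Pparg, a nuclear receptor of lipid storage, averaged 2.18 (SD 0.418) in Idh1R132H and 1.15 (SD 0.265) in WT. These 3 genes had higher values in every Idh1R132H pool than in any WT pool. Hk2, the hexokinase of glycolysis, averaged 26.0 TPM (SD 1.75) in Idh1R132H and 21.2 (SD 1.79) in WT, while its list of HIF and glycolysis genes was at a median of 0.00.

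Lower genes included enzymes and receptors. Acadl, the long-chain acyl-CoA dehydrogenase of mitochondrial fat oxidation, had 165, 177, 167 and 203 TPM in Idh1R132H, against 222, 229, 229.9 and 289 TPM in WT (log2 difference -0.44 ± 0.12). All WT pools lay above all Idh1R132H pools. Gsta4, a glutathione transferase for lipid aldehydes, had 14.9, 14.9, 16.1 and 14.3 TPM in Idh1R132H and 19.6, 21.99, 19.9 and 25.0 in WT. Unc5cl, a death-domain protein, had 0.877, 0.571, 0.943 and 0.856 TPM in Idh1R132H, against 2.58, 2.10, 2.18 and 3.03 TPM in WT. Erbb3, a receptor of the EGF receptor family, had 2.22, 2.61, 3.01 and 3.70 TPM in Idh1R132H and 5.30, 5.46, 5.86 and 7.14 in WT. In all 4 genes the groups were apart and none was called, with unadjusted p between 0.000195 and 0.00485.

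Fhl2 and Idh1 lie on the same chromosome, and genes there were looked at after this was seen. Counted from Idh1 along the chromosome, Fhl2 lies at -22.04 Mb. Rfx8, an RFX family factor at 1.30 TPM (SD 0.131) in Idh1R132H and 2.77 (SD 0.525) in WT, lies at -25.49 Mb. Acadl lies at 1.67 Mb and Lancl1, a glutathione-binding protein, at 1.84 Mb. Lancl1 had 29.4, 32.4, 30.8 and 33.7 TPM in Idh1R132H, against 37.4, 40.6, 38.4 and 45.5 TPM in WT, with no overlap. Within 10 Mb of Idh1 the groups did not overlap in 7 of 104 tested genes (6.73%), within 35 Mb in 12 of 350 (3.43%), on the rest of chromosome 1 in 9 of 496 (1.81%) and on other chromosomes in 1.66%. By unadjusted p under 0.05 the shares were 3.85%, 4.00%, 3.43% and 1.52%, so by that count the rest of chromosome 1 stood near the window around Idh1. Chromosomes 6 and 12 had shares near that of chromosome 1 as a whole: 3.42% and 3.31% beside 3.66% by unadjusted p, and 2.89% and 2.02% beside 2.48% without overlap. Both windows were chosen with these values in view, and whether DNA linked to the engineered allele has a part in them was not tested.

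**Figure D5:**
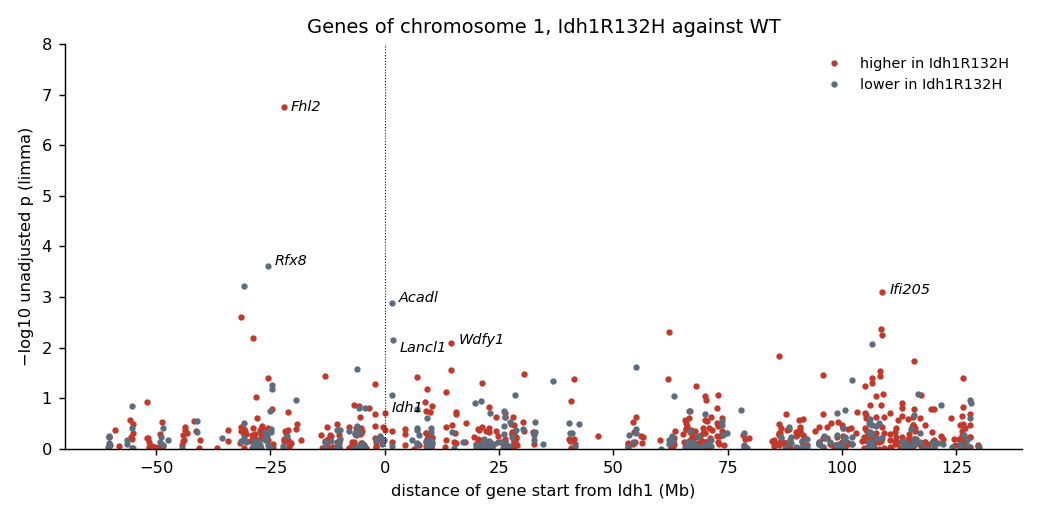
Unadjusted limma p (-log10) of the tested genes of chromosome 1 against the distance of their start from Idh1 in Mb, coloured by direction in Idh1R132H. Fhl2, at -22.04 Mb, stands above all others, and Ifi205 marks the interferon-inducible cluster about 109 Mb away.

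Across the other genotypes the genes described here had different patterns, given side by side because each mutant group was set against the same WT libraries. Oasl1 averaged 25.0 TPM in Idh1R132H, 17.7 in Idh2R140Q, 7.63 in Idh2R172K, 25.3 in Tet2KO and 15.9 in WT. Acadl averaged 178 TPM in Idh1R132H, 237 in Idh2R140Q, 296 in Idh2R172K, 245 in Tet2KO and 242 in WT. Tested directly, Idh1R132H was 1.59 ± 0.16 above Idh2R172K in Oasl1 (limma, adjusted p = 9.37e-07) and -0.02 ± 0.16 from Tet2KO (0.935). In Acadl it lay 0.73 ± 0.12 lower than Idh2R172K (0.000205) and 0.45 ± 0.12 lower than Tet2KO (0.0203). Between Idh1R132H and Idh2R140Q 1 gene was called among all genes tested (0.00723%), Fhl2; the differences were 0.48 ± 0.16 in Oasl1 and -0.41 ± 0.12 in Acadl. Against Idh2R172K 13.8% and against Tet2KO 13.3% of all genes were called. Against WT the shares called were 0% in Idh2R140Q, 15.6% in Idh2R172K and 6.56% in Tet2KO.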

How the data were processed

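Sorted LSK cells gave total RNA for sequencing. Per the submitters' processing notes, reads were handled with Trim Galore, STAR and featureCounts on mm10; the versions, the annotation release and the strand setting are not given in the sources used here. The authors deposited TPM values, 1 column per library. TPM shares a fixed total, so a few abundant RNAs can move all other genes: the RNA Gm23935 held 12.1, 12.1, 12.8 and 7.66% of TPM in Idh1R132H and 13.5, 13.4, 12.0 and 8.03% in WT.

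Genes averaging 1 TPM or more in the 8 libraries were tested on log2(TPM + 1) with limma 3.58.1 (R 4.3.3; variance trend) in 1 fit of 20 libraries and 5 groups (15 residual degrees of freedom), with Benjamini-Hochberg adjustment over all genes and a call at 0.05. The pseudocount of 1 understates folds of low genes. Values after ± are standard errors of log2 differences, Idh1R132H minus WT unless named. Depth was rebuilt from TPM and GENCODE M21 gene lengths, with 45229 of 46078 IDs matched; 90.0 to 91.2% of low values were whole within 0.1 read. The limma fit was tested on simulated data, drawn without the shared deviations of same-numbered libraries.

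Replicate numbers come from the labels. Same-numbered libraries of Idh1R132H and WT correlated above 0.1 in every pair, so a fit with the number as a block was run too. That correlation was not computed for the other groups, which enter the block fit of 20 libraries. Nothing says what the pools of a number share, and p-values measure the spread between pools.

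Genes were named by a rule: Idh1, Idh2 and Tet2, called genes, the 12 smallest p on each side without overlap, up to 4 members of each process list and 2 of each marker list, and fixed progenitor genes. A single list member is counted but not reported here by itself. The members and lists were chosen with earlier results of these data known. Alternatives were other scalings, pseudocounts, filters and sets of libraries, and limma-voom on rebuilt counts. Reads of similar genes (Ifi27 and Ifi27l2a, the Oas1 genes, Ifit3 and Ifit3b, Ifi205 and its neighbours) and of overlapping genes (Oasl1 and Gm13822, Irf7 and Phrf1, Hk2 and Gm17034) may be split or shared.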

Additional observations from a re-analysis of the deposited data

Results flagged for a closer look

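Among 102 groups of 4 libraries, 7 had 1 library far from the other 3 (by Dixon's gap over range); chance alone gives about 1 in 20 such groups. In Idh1R132H, pool 4 was high in Hmga2 at 7.63 TPM (others 4.86 to 5.25), and pool 2 was low in Hk2 at 23.4 TPM (others 26.6 to 27.1). In WT, pool 4 was high in 4 genes. It had 48.9 TPM of Irf7 (others 26.6 to 28.1). It had 8.22 TPM of Ms4a2 (others 6.23 to 6.37), 289 TPM of Acadl (others 222 to 229.9) and 3.55 TPM of Rfx8 (others 2.44 to 2.59). WT pool 2 was low in Mpo at 2573 TPM (others 3860.0 to 4042). Pool 4 was the library concerned in 5 of the 7 cases.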

How the results depend on the processing

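The number of genes called was 2 with no filter on low values (Fhl2 and Gm14248) and 2 with the replicate block in 20 libraries (Fhl2 and Plbd1). It was 0 with a filter at 5 TPM, which removes Fhl2, 0 in the 8 libraries without and 0 with the replicate block, 0 with limma-voom on rebuilt counts (12943 genes, Fhl2 not among them), and 0 with the block in the 6 libraries left without those numbered 4, an alternative chosen after seeing the data. Unadjusted p under 0.05 was then reached by 103, 325, 1511, 238 and 1213 genes. Leaving out 1 library gave 1 to 2 calls, the 2 being without Idh1R132H pool 4 (Fhl2 and Gm14044). Other settings gave 1. Genes without overlap numbered 146 at 5 TPM and 1503 without the libraries numbered 4, where fewer libraries make separation easier. The interferon median was 0.16 in pair 2 alone and 0.13 to 0.38 when leaving out 1 library. Except where stated, the cause was not tested. The 51 genes followed kept their direction in each setting that gave a value. In 8 and in 20 libraries the block changed no call among them other than that of Plbd1 in 20. Fhl2 was not called in the 8 libraries with or without it. The 6 libraries were fitted only with the block, so its effect there is not known. Depth was alike in the 8 libraries, and genes near 1 TPM carry the most counting error.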

Other observations

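Wdfy1, an endosomal protein of Toll-like receptor signalling encoded 14.5 Mb from Idh1, had 19.4, 22.5, 22.3 and 28.6 TPM in Idh1R132H pools 1 to 4, against 19.8, 4.25, 3.75 and 9.81 TPM in WT pools. It was chosen after its values were seen. WT pool 1 lay with the Idh1R132H pools while WT pools 2 to 4 were far lower, and the log2 difference of 1.47 ± 0.49 was not called. MHC class I presentation genes summed to 16984 to 17807 TPM in Idh1R132H and 16093 to 16774 TPM in WT, without overlap. These sums were not rescaled, and so small a margin depends on the scaling. The median log2 difference of the list was 0.06, and 0.02 with median-of-ratios scaling.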
